A study of Mus musculus with 6 samples.

Results

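Lrat, Kcnj13, Slc26a7, Slc16a12 and Cdh3 are 5 genes of the retinal pigment epithelium (RPE) that cover retinoid esterification, ion and metabolite transport, and cell adhesion. They were chosen by name for these roles, with earlier results of these data known, and were 5 of the 701 genes with counts in the deposited table. Bulk RNA-seq had been done on the peripheral ventrotemporal (VT) retina, the lower edge of the retina on its temporal side, 24 hours after optic nerve crush (ONC), an injury to the axons of retinal ganglion cells. The comparison was between WT mice and Slc6a4-/- mice, in which the gene of the serotonin transporter (SERT) is disrupted, and the study asked what differs in the injured VT retina when SERT is missing. There were 3 samples per genotype, each a pool of VT pieces from the retinae of 3 mice. All 6 samples came from the crushed left eye of 8-week-old (postnatal day 56) mice labelled C57BL/6, so that every sample carried the injury and no uninjured sample was compared here. WT mice were C57BL/6J and Slc6a4-/- mice were a separately purchased line that lacks the transporter in all tissues. Both sexes were used. The labelled tissue was retina, and whether pigment epithelium was removed from the dissected pieces was not given in the sources used here.

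The RPE is the pigmented monolayer that lies behind the photoreceptors and forms the outer blood-retina barrier. It takes up all-trans retinol released by photoreceptors, stores it as retinyl esters and returns the cis chromophore, a cycle that keeps the visual pigments supplied. Its apical and basal membranes carry different channels and transporters, which move potassium, chloride, bicarbonate, water and metabolites between the subretinal space and the choroid, while cadherins and claudins hold the sheet together. At the edge of the retina the RPE continues into the ciliary epithelium, which shares part of this transport machinery.

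The sequences just upstream of the transcription starts are shown for the 3 of 5 genes that had an entry among the RefSeq promoters on GRCm38.p6, because genes of the RPE are known to be driven through E-boxes bound by MITF and sites bound by OTX2. Slc26a7 and Cdh3 had no entry. Each line gives the 250 bases before the start, 5′ to 3′ on the strand of the gene, and all 3 genes lie on the minus strand. The Lrat window is chr3:82903975-82904224, the Kcnj13 window is chr1:87394730-87394979 and the Slc16a12 window is chr19:34747329-34747578. Capitals mark matches on either strand to the E-boxes, which are CACGTG, its own reverse complement, and the form CATGTG, which reads as CACATG on the opposite strand, to the OTX core TAATCC, which reads as GGATTA on the opposite strand, or to TATAA, which reads as TTATA on the opposite strand.
Lrat: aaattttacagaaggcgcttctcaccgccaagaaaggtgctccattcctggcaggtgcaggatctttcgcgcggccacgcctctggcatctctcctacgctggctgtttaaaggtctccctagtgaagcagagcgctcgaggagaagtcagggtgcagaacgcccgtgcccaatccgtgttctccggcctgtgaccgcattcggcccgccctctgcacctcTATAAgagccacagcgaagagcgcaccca
Kcnj13: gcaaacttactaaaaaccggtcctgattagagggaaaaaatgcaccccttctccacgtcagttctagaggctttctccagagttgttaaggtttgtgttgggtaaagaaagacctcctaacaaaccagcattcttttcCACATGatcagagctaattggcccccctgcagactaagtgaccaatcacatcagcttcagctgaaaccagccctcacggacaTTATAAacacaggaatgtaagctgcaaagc
Slc16a12: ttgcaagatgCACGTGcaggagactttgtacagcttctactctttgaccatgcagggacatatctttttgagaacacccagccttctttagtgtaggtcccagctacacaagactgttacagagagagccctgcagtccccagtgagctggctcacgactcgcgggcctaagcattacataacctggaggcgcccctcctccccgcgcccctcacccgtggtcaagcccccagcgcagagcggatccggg
Lrat and Kcnj13 each carried TATAA at 29 to 25 bases before the start, and in Kcnj13 it overlapped a TTATA at 30 to 26 bases. TATAA in either orientation occurred in 22.8% of 32851 windows of the same length. Kcnj13 held the E-box CACATG at 112 to 107 bases before the start, letters found in 12.3% of windows, and Slc16a12 held the E-box CACGTG at 240 to 235 bases, found in 6.02%. TAATCC, the core recognised by OTX factors and present in 6.25% of windows, was in none of the 3. The G and C content was 59.2% for Lrat, 45.2% for Kcnj13 and 57.6% for Slc16a12. These matches describe letters only, and no binding was measured.

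Counts were read per gene and sample and divided by a factor for the library total, so that values below are scaled counts, in reads of a library of average size. The library totals, recovered from the authors' RPKM values, ran from 75.3 to 94.0 M, in the unit that those RPKM values were divided by. Slc6a4 itself had 1516, 1397 and 1548 reads in WT and 0, 0 and 3 reads in Slc6a4-/-, as the labels state. The table had been selected by the authors at p < 0.05 in a comparison of these same samples, so that the p-values here describe genes already chosen for a difference and carry no error rate for the whole transcriptome. They measure the spread between pools, not between single mice. WT pool 3 stood apart, with the lowest WT value for all 5 genes, a place it took in 47.5% of the 701 genes, and its results are given with and without it below.

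The mean of all 5 genes was higher in the Slc6a4-/- pools than in the WT pools. The log2 fold change ran from 0.50 for Lrat to 1.13 for Slc16a12, with a median of 0.76, beside a median of 0.30 over all 701 genes and 0.64 over the 397 genes that were higher. None of the 5 passed an adjusted p of 0.05 in limma, against 6 of 701 genes (0.856%) called higher by that rule. At an unadjusted p of 0.05, 4 of the 5 passed (Lrat, Slc26a7, Cdh3 and Slc16a12), where the share of the table called higher was 30.5%. The values of the genotypes did not overlap for 2 of the 5, Lrat and Cdh3, beside 34.8% of the table with no overlap and higher values in Slc6a4-/-. The smallest two-sided p that an exact permutation of 3 and 3 pools can give is 0.1.

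**Figure D1:**
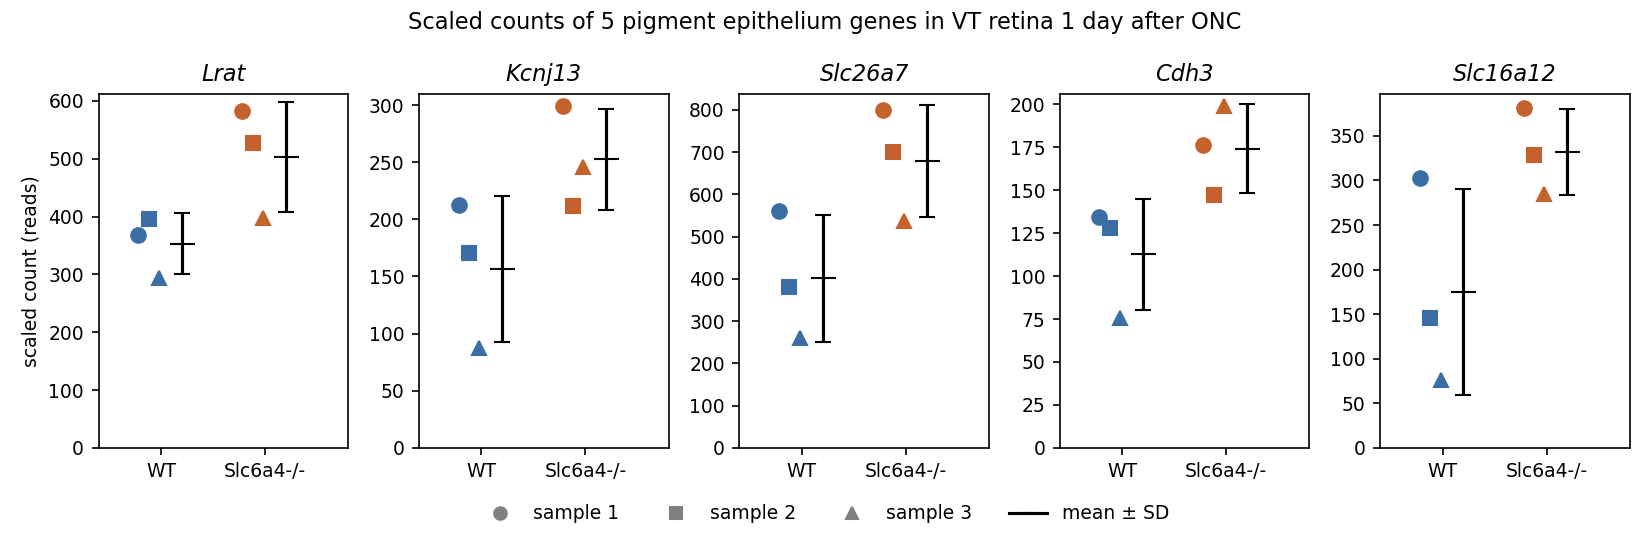
Scaled counts (reads) of the 5 genes on the vertical axis of each panel, by genotype, with 1 symbol shape per pool number and the mean ± SD (n = 3) beside the points. Lrat and Cdh3 are the genes without overlap, WT pool 3 is the lowest of all 6 points in each panel, and the WT points of Slc16a12 spread from 76.7 to 302.

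Lrat encodes lecithin retinol acyltransferase, which turns retinol into the retinyl esters that feed the visual cycle. Its scaled counts were 367, 396 and 294 in WT and 583, 527 and 398 in Slc6a4-/-. The genotypes did not overlap, but Slc6a4-/- pool 3 exceeded WT pool 2 by less than 2 reads. The means were 353 ± 52.8 in WT and 503 ± 94.9 in Slc6a4-/- (SD, n = 3), a log2 fold change of 0.50 with a standard error of 0.19 and a 95% interval of 0.05 to 0.96 (limma, adjusted p = 0.108, exact permutation p = 0.1). Lrat had the smallest fold change of the 5 and the smallest WT spread, with a coefficient of variation of 15.0% in WT and 18.9% in Slc6a4-/-. The gene (ENSMUSG00000028003) lies on GRCm38 at chr3:82892579-82903973, with 5351 exon bases in 2 blocks, and the antisense gene Rbm46os overlaps it without sharing an exon base.

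Kcnj13 encodes Kir7.1, the inwardly rectifying potassium channel of the apical RPE membrane, which returns potassium to the subretinal space. It had 212, 171 and 87.2 scaled counts in WT and 300, 212 and 246 in Slc6a4-/-. WT pool 1 exceeded Slc6a4-/- pool 2 by less than 1 read, and the genotypes overlapped at that point only. The means were 157 ± 63.7 and 252 ± 44.1 (SD, n = 3), and the log2 fold change of 0.76 with a standard error of 0.34 had an interval of -0.05 to 1.58 that included 0 (limma, adjusted p = 0.110, exact permutation p = 0.2). Kcnj13 (ENSMUSG00000079436, chr1:87386363-87394729) is the shortest of the 5, with 1270 exon bases in 3 blocks, of which 623 are shared with exons of Gigyf2 on the opposite strand. Whether the counting used strand was not given in the sources used here, so reads from Gigyf2 in this value cannot be told apart.

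Slc26a7 encodes an anion exchanger and chloride channel of the SLC26 family, also known from kidney, stomach and thyroid epithelia. Its values were 561, 382 and 260 in WT and 799, 700 and 537 in Slc6a4-/-. WT pool 1 lay above Slc6a4-/- pool 3, and the other WT pools lay below every Slc6a4-/- pool. The means were 401 ± 151 and 679 ± 132 (SD, n = 3), a log2 fold change of 0.81 with a standard error of 0.29 and an interval of 0.11 to 1.50 (limma, adjusted p = 0.108, exact permutation p = 0.2). It was the most heavily counted of the 5, with 248 to 907 reads per pool, and lies at chr4:14502430-14621805 (ENSMUSG00000040569) with 5431 exon bases in 20 blocks.

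Slc16a12 encodes a creatine transporter of the monocarboxylate transporter family, known from lens, kidney and RPE. It had 302, 146 and 76.7 scaled counts in WT and 381, 329 and 285 in Slc6a4-/-. WT pool 1 lay within the Slc6a4-/- range, and the WT values covered a 3.95-fold range against 1.34-fold in Slc6a4-/-. The means were 175 ± 116 and 332 ± 48.4 (SD, n = 3), and the log2 fold change of 1.13, the highest of the 5, also had the largest standard error, 0.46, with an interval of 0.03 to 2.23 (limma, adjusted p = 0.108, exact permutation p = 0.2). In WT its coefficient of variation was 66.2%, where counting error alone would give 7.84%. The gene (ENSMUSG00000009378) lies at chr19:34668403-34747289, with 4170 exon bases in 8 blocks, and a processed pseudogene on the opposite strand shares no exon base with it.

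Cdh3 encodes P-cadherin, a calcium-dependent adhesion molecule of the junctions between RPE cells that is also found in other epithelia. It was the least counted of the 5, with scaled counts of 134, 128 and 75.6 in WT and 176, 147 and 199 in Slc6a4-/-. All Slc6a4-/- pools lay above all WT pools, and its highest value was in Slc6a4-/- pool 3, whereas pool 1 was the highest Slc6a4-/- pool for the other 4 genes. The means were 113 ± 32.2 and 174 ± 26.0 (SD, n = 3), a log2 fold change of 0.66 with a standard error of 0.27 and an interval of 0.02 to 1.30 (limma, adjusted p = 0.108, exact permutation p = 0.1). Cdh3 (ENSMUSG00000061048) lies on the plus strand at chr8:106510891-106557297, with 4384 exon bases in 16 blocks.

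Per exon length, Kcnj13 had the highest level of the 5, at 1.49 ± 0.606 RPKM in WT and 2.40 ± 0.419 RPKM in Slc6a4-/- (SD, n = 3), with the shared exon bases counted in. Slc26a7 followed at 0.892 ± 0.336 and 1.51 ± 0.294 RPKM, and Lrat at 0.796 ± 0.119 and 1.13 ± 0.214 RPKM. The levels of Kcnj13 and Slc26a7 overlapped in WT, at 0.829 to 2.02 and 0.579 to 1.25 RPKM, but not in Slc6a4-/-, at 2.02 to 2.85 and 1.19 to 1.78 RPKM. Slc26a7 and Lrat were within their spread, since the WT levels of Lrat lay between 0.663 and 0.894 RPKM and their Slc6a4-/- levels, from 0.898 to 1.32 RPKM, overlapped those of Slc26a7. Slc16a12 had 0.506 ± 0.335 RPKM in WT and 0.960 ± 0.140 RPKM in Slc6a4-/-, and its WT values, from 0.222 to 0.876 RPKM, reached into those of Lrat. Cdh3 was lowest, at 0.310 ± 0.0886 and 0.480 ± 0.0715 RPKM. The order of the 5 means was the same in both genotypes. In Slc6a4-/- the levels of Cdh3, from 0.405 to 0.548 RPKM, lay below all those of Slc16a12, from 0.824 to 1.10 RPKM, while in WT these genes overlapped.

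The WT pools differed more among themselves than the Slc6a4-/- pools for 4 of the 5 genes. The coefficient of variation in WT was 40.7% for Kcnj13, 37.7% for Slc26a7 and 28.6% for Cdh3, against 17.5%, 19.5% and 14.9% in Slc6a4-/-, and Lrat was the exception. Counting error alone would give 5.49% for Lrat, 8.26% for Kcnj13, 5.16% for Slc26a7 and 9.73% for Cdh3 in WT. WT pool 1 was the highest WT pool for 4 of the 5, as it was in 53.5% of the table, and Lrat was highest in WT pool 2. Slc6a4-/- pool 1 was the highest Slc6a4-/- pool for 4 of the 5, which it was in 22.8% of the table.

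Ratios between genes within a pool need no library scaling and compare the genes with each other. The steadiest ratios were those of Kcnj13 to Cdh3 and to Slc26a7. Kcnj13 had 0.378, 0.447 and 0.335 reads per read of Slc26a7 in WT and 0.375, 0.303 and 0.458 in Slc6a4-/-, a range of 1.51-fold. Kcnj13 had 1.58, 1.33 and 1.15 reads per read of Cdh3 in WT and 1.70, 1.44 and 1.24 in Slc6a4-/-, a range of 1.47-fold. Lrat and Slc16a12 kept the least steady ratio, with 1.21, 2.72 and 3.84 reads of Lrat per read of Slc16a12 in WT and 1.53, 1.60 and 1.40 in Slc6a4-/-, a range of 3.16-fold. The Slc6a4-/- ratios of that pair lay inside the WT range. Lrat per read of Slc26a7 was 0.655, 1.04 and 1.13 in WT and 0.730, 0.753 and 0.741 in Slc6a4-/-, again tighter in Slc6a4-/-. No ratio of the 10 pairs differed between genotypes by the exact two-sided permutation test (adjusted p of 0.75 or more over the 10 pairs), which at 3 against 3 cannot pass the threshold.

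The size of each difference depended on the WT pools. Without WT pool 3 the log2 fold change was 0.38 for Lrat, 0.39 for Kcnj13, 0.53 for Slc26a7, 0.40 for Cdh3 and 0.65 for Slc16a12, and adjusted p in limma ran from 0.191 to 0.206. The median of the 5 was then 0.40, beside 0.27 over all genes. Without WT pool 1 all 5 genes had no overlap, and the changes were 0.54, 1.03, 1.08, 0.81 and 1.63 in the same order. Slc26a7 and Slc16a12 then passed the threshold (limma, adjusted p = 0.0400 for both), with 172 genes of the table passing in place of 9. With factors from the median of ratios over the table the changes were 0.35, 0.61, 0.65, 0.50 and 0.97, none of the 5 was free of overlap, and the median of all genes moved from 0.30 to 0.14. That scaling assumes that the typical gene of the table does not differ, although the table was selected for difference.

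**Figure D2:**
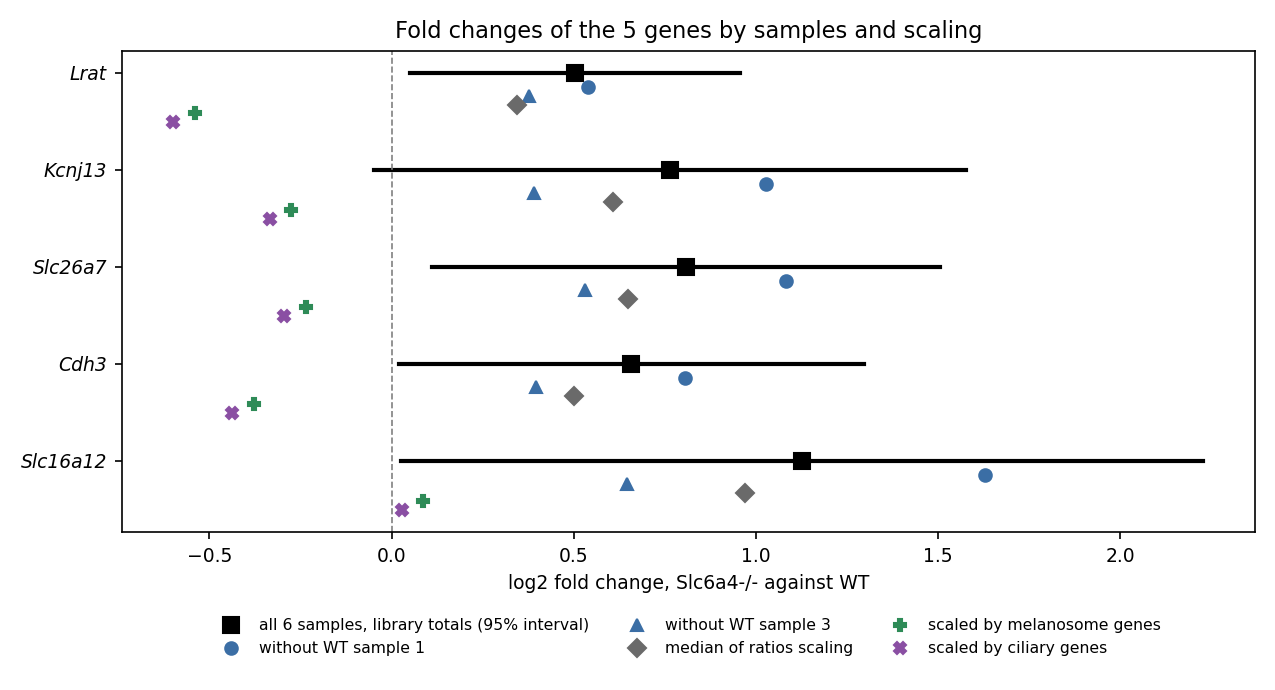
Log2 fold change of Slc6a4-/- against WT on the horizontal axis for each of the 5 genes, with all 6 pools and library totals (squares, line for the 95% interval), without WT pool 1 or 3, and under other scalings. Every point from library totals or the median of ratios is above 0, and scaling by the summed melanosome or ciliary epithelium genes puts 4 of the 5 below 0, with Slc16a12 at 0.09 and 0.03, while the median of all 701 genes moves from 0.30 to -0.75 and -0.81.

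Other genes of the RPE were looked up in lists chosen by their known roles. A list gene that is missing from the table had not met the authors' selection, which does not say that it was not expressed. Lrat was the gene of retinoid handling described here, since Rpe65, Rlbp1, Rdh5 and Rgr, defining genes of the RPE visual cycle, were not analysed here.

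Of 26 genes of RPE channels, transporters and adhesion, 10 were in the table, 4 of them the genes above. The other 6 of 22 all had a higher mean in Slc6a4-/-, with a median log2 fold change of 0.60 and a range of 0.23 to 1.30, and none passed the adjusted threshold in limma while 4 passed unadjusted, beside 0.856% and 30.5% of the table called higher by these rules. Without WT pool 3 their median was 0.38. Slc4a4, the sodium bicarbonate cotransporter, had 691, 614 and 596 scaled counts in WT and 855, 1000 and 730 in Slc6a4-/-, with no overlap and a log2 fold change of 0.43. Slc2a1, the glucose transporter of the blood-retina barrier, also had no overlap, at 4455 to 5010 in WT and 5240 to 5723 in Slc6a4-/-, with the smallest change of the list. Atp1b3, a subunit of the sodium pump, had 2860, 2374 and 1661 in WT and 3634, 3381 and 2807 in Slc6a4-/-, an overlap by WT pool 1. Cldn2, a claudin of leaky tight junctions, had the highest change, 1.30, and the widest WT spread, with 441, 261 and 53.6 in WT against 516, 477 and 383 in Slc6a4-/- (limma, adjusted p = 0.136), and its change without WT pool 3 was 0.42. In all 6 the highest WT pool was pool 1 and the lowest was pool 3.

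A further list of 15 genes known from RPE, but shared with other eye tissues, had 6 members in the table, all with a higher mean in Slc6a4-/- and a median log2 fold change of 0.62. Bmp4, a secreted growth factor, was the gene without overlap and the 1 of the 6 that passed an unadjusted p of 0.05, at 81.4, 74.9 and 53.6 in WT and 120, 106 and 91.8 in Slc6a4-/-. These counts of 1 in 6 are below the shares of the table, 34.8% without overlap and 30.5% at the unadjusted threshold. Timp3, an inhibitor of matrix proteases, had 4112, 3093 and 2243 in WT and 4470, 4611 and 3549 in Slc6a4-/-. Ptgds, a prostaglandin synthase, had the highest change of this list, 0.99, and ran from 1242 to 4877 in WT and from 4007 to 6543 in Slc6a4-/-. Timp3 and Ptgds overlapped between genotypes, both through WT pool 1. Without WT pool 3 the change of Ptgds was 0.45 and the median of the 6 was 0.37.

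Melanosome genes and genes of neighbouring tissues moved with the 5 genes across the pools, least closely for Lrat and Cdh3. Their part in the result was not tested. Melanosome genes belong to pigment cells, which include the RPE itself, so that their list does not stand for another tissue. In bulk samples fewer cells of a type and less RNA per cell cannot be told apart. Of 11 melanosome genes 6 were in the table, Pmel, Tyrp1, Dct, Mlana, Gpnmb and Rab38, all with a higher mean in Slc6a4-/- and a median log2 fold change of 1.05. Their summed scaled counts were 2676, 1791 and 1030 in WT and 3879, 4710 and 2379 in Slc6a4-/-, an order in which WT pool 1 lay above Slc6a4-/- pool 3. Of 12 genes of the ciliary epithelium 10 were in the table, all higher, with a median of 1.10 and sums of 14130, 7885 and 3242 in WT and 18899, 14322 and 13289 in Slc6a4-/-. Mfrp is in this list and in the list of shared RPE genes. Of 10 genes of fibroblasts and sclera 8 were in the table, 7 higher and Col1a1 lower, with a median of 1.15 and sums of 4864, 2545 and 1089 in WT and 5575, 3930 and 4561 in Slc6a4-/-. WT pool 1 held 2.60 times the melanosome sum of WT pool 3, 4.36 times its ciliary epithelium sum and 4.47 times its fibroblast and sclera sum. Without WT pool 3 the medians were 0.68 for the melanosome genes, 0.50 for the ciliary epithelium genes and 0.54 for the fibroblast and sclera genes. None of these genes passed the adjusted threshold, and Omd, of fibroblasts and sclera, was the 1 gene with a pool at 0 reads, WT pool 3.

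Genes of retinal neurons did not share this order. Of 10 neural retina genes 8 were in the table, 2 with a higher and 6 with a lower mean in Slc6a4-/-, a median log2 fold change of -0.19, and sums of 49133, 56474 and 54381 in WT and 42367, 58920 and 49353 in Slc6a4-/-. WT pool 1 held 0.903 times the sum of WT pool 3. Of 9 genes with dorsoventral or cone gradients, which mark where in the retina a piece was cut, 8 were in the table, 5 higher and 3 lower. Their median was 0.46, with sums of 13800, 22453 and 18667 in WT and 12575, 15956 and 13968 in Slc6a4-/-. The list joins genes of opposite gradients, so that its median, its sums and its counts of higher and lower genes do not show position. Higher by log2 fold change were Tbx5 (1.81), Aldh1a1 (0.80), Bmp4 (0.60), Efnb2 (0.53) and Opn1mw (0.39). Lower were Opn1sw (-1.13), Vax2 (-0.79) and Ebf3 (-0.18). The study gives Ebf3 as a marker of F-RGCs, a type of retinal ganglion cell. A difference in where the pieces were cut was not tested. Opn1sw and Opn1mw are in both of these lists, and Bmp4 is in the dorsoventral list too. Col1a1, the collagen gene that was lower in Slc6a4-/- (log2 fold change -1.23), had its highest value in WT pool 3, at 317 scaled counts against 173 and 117 in the other WT pools.

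Taken as a share of the summed melanosome counts, Lrat was 13.7%, 22.1% and 28.5% in WT and 15.0%, 11.2% and 16.7% in Slc6a4-/-, so that the genotypes overlapped and the WT mean was the higher. Kcnj13 was 7.93%, 9.53% and 8.46% of that sum in WT and 7.72%, 4.50% and 10.3% in Slc6a4-/-. Of the summed ciliary epithelium counts, Slc16a12 was 2.14%, 1.85% and 2.36% in WT and 2.02%, 2.29% and 2.14% in Slc6a4-/-, nearly level in all 6 pools. Kcnj13 was 1.50%, 2.16% and 2.69% of the ciliary sum in WT and 1.58%, 1.48% and 1.85% in Slc6a4-/-, and Cdh3 was 0.950%, 1.62% and 2.33% against 0.932%, 1.03% and 1.50%. Used in place of the library totals, the melanosome sum gave log2 fold changes of -0.54 for Lrat, -0.28 for Kcnj13, -0.24 for Slc26a7, -0.38 for Cdh3 and 0.09 for Slc16a12. The ciliary epithelium sum gave -0.60, -0.33, -0.30, -0.44 and 0.03 in the same order, and all 5 genes overlapped between genotypes under both. These scalings moved the whole table alike, with a median of all 701 genes of -0.75 and -0.81. The median of the 5 genes lay 0.47 above that of the table under both, as with library totals. A change of factors shifts every gene nearly alike, so that this distance could hardly change. Without WT pool 3 and with library totals the distance was 0.13.

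**Figure D3:**
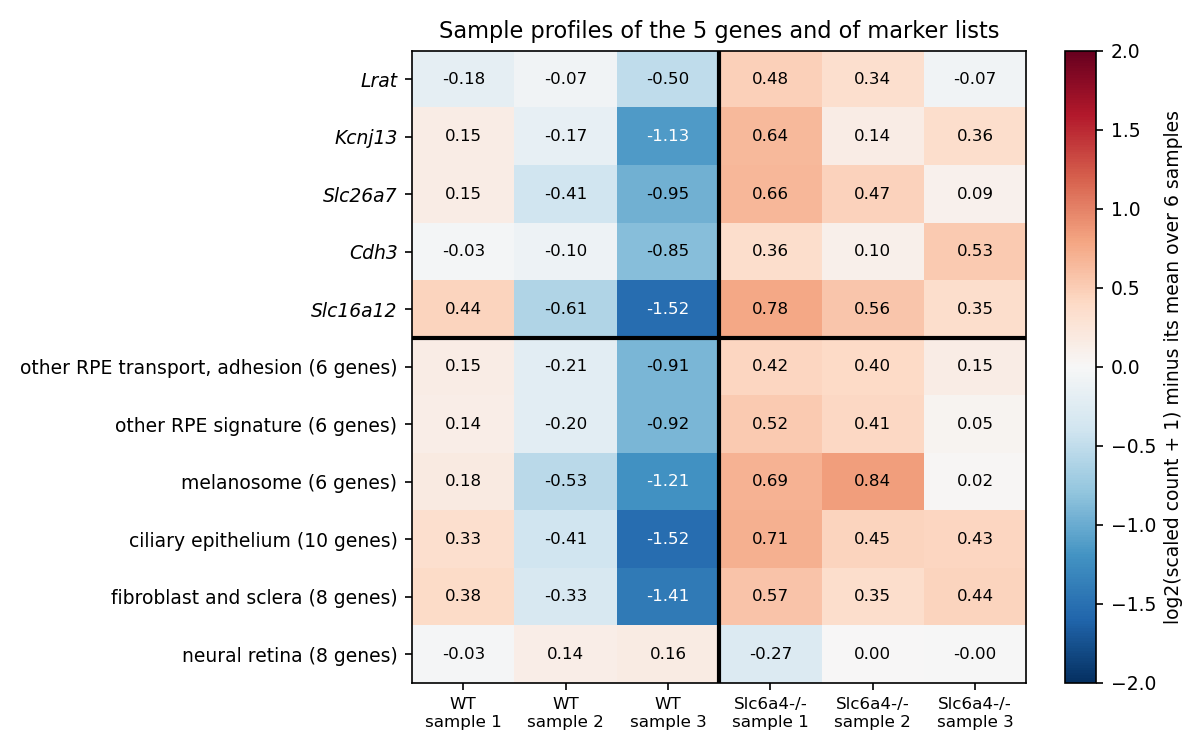
Log2(scaled count + 1) of each gene, or the mean over the genes of a list, minus its own mean over the 6 pools, with rows for the 5 genes and 6 lists and columns for the pools. WT pool 3 is the lowest column for the 5 genes and for the RPE, melanosome, ciliary epithelium and fibroblast lists, from -0.50 in Lrat to -1.52 in Slc16a12, and is at 0.16 for the neural retina genes.

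Likeness between profiles was measured as the root mean square (RMS) difference of centred log2 values over the 6 pools, as a description. The retinoid and dorsoventral lists were not compared, so that nearest means nearest among the other lists. Slc16a12 lay nearest to the ciliary epithelium list, at 0.113, and at 0.368 from the other RPE transport and adhesion genes. Slc26a7 lay nearest to the shared RPE genes, at 0.104, as did Lrat, at 0.228. Cdh3 lay nearest to the other RPE transport and adhesion genes, at 0.220, and Kcnj13 lay about as near to these, at 0.184, as to the fibroblast and sclera list, at 0.188, and the shared RPE genes, at 0.194. Against the neural retina list the differences were 0.446 for Lrat, 0.679 for Kcnj13, 0.666 for Slc26a7, 0.544 for Cdh3 and 0.926 for Slc16a12. Lrat lay about as far from the melanosome genes, at 0.438, and farther from the fibroblast and sclera and ciliary epithelium genes, at 0.494 and 0.536. From the mean profile of the 5, Slc26a7 and Kcnj13 were 0.113 away, Cdh3 0.202, Lrat 0.281 and Slc16a12 0.320.

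Among 509 other genes with a mean scaled count of 100 or more, the median RMS difference from the mean profile of the 5 was 0.541, and the lowest 5% lay under 0.181. The 6 most alike were Slc6a20a (0.0518), Dse (0.0723), Mdfic (0.0746), Cldn1 (0.0899), Ifitm2 (0.105) and Efemp1 (0.108). Slc6a20a, a proline transporter that was also in the RPE transport list, had 421, 346 and 200 scaled counts in WT and 581, 513 and 447 in Slc6a4-/-, with no overlap (log2 fold change 0.73, limma, adjusted p = 0.108). Mdfic, a regulator of transcription factors, was the other of the 6 without overlap, by less than 1 read, at 262, 198 and 113 in WT and 339, 262 and 288 in Slc6a4-/-. Dse, which modifies dermatan sulfate chains, had 254, 188 and 109 in WT and 346, 253 and 268 in Slc6a4-/-. Cldn1, a tight junction protein, and Efemp1, a matrix glycoprotein, were already in the RPE lists, and Ifitm2, an interferon-inducible membrane protein, was in none of the lists. The adjusted p of all 6 lay between 0.108 and 0.111 in limma.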

How the data were processed

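RNA-seq was performed on 3 WT and 3 Slc6a4-/- pools, each of 3 peripheral VT retinae. The authors prepared rRNA-reduced total RNA libraries, and paired 75-base reads were mapped to GRCm38 and assigned to genes in CLC Genomics Workbench. Per the labels and the study's methods, the deposited table keeps genes with at least 10 reads in 2 samples of a genotype that passed their own test, at a p-value under 0.05. It holds 701 genes. The deposited read counts are whole numbers without normalization, written with a comma as digit separator, and 25 blank lines were skipped. The authors also deposited the RPKM mean of the higher genotype. Their columns of fold changes and p-values were not used, and 0 columns with values of single samples went unused.

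Library totals were solved by least squares from RPKM means of at least 2, counts and exon lengths of GENCODE M21, in which 701 identifiers matched. The fit used 63 WT and 62 Slc6a4-/- genes and had residual SDs of 0.0669% and 0.0756%. Totals were 75.3, 79.6 and 78.9 M in WT and 94.0, 89.5 and 81.2 M in Slc6a4-/-. Whether that unit is reads or pairs was not settled. Counts were divided by totals scaled to a geometric mean of 1. Because of the written form of the counts, limma 3.58.1 (lmFit, eBayes with trend) in R 4.3.3 was run on log2(scaled count + 1) in place of a count test, with genotype as the only term and Benjamini-Hochberg adjustment over 701 genes. Fold changes are on that scale. Exact permutation tests used scipy 1.17.1. The procedures were tested on simulated data. In the simulated fit the spread beyond counting error was set alike for all genes. Its outcome does not carry over to the 5 genes, whose coefficients of variation in WT ran from 15.0% to 66.2%.

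The 5 genes and all lists were chosen with earlier results of these data known. Named genes were the 5, Slc6a4, genes of the lists (retinoid handling, RPE transport and adhesion, shared RPE genes, melanosome, ciliary epithelium, fibroblast and sclera, neural retina, dorsoventral) and the 6 genes nearest to the mean profile of the 5 at a mean scaled count of 100 or more. Alternatives were other scalings, pseudocounts of 0.5 and 5, a minimum mean scaled count of 50, limma without trend, voom weights, a replicate block and leaving out each pool. Scaling by summed melanosome or ciliary epithelium counts was chosen after seeing the data. Of the list of retinoid handling, Lrat alone is reported here.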

Additional observations from a re-analysis of the deposited data

How the results depend on the processing

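The 5 log2 fold changes kept their direction in all 15 fits fixed with the design, the reported one included. These fits reuse values of genes that the authors had selected for a difference, so that a kept direction was likely beforehand. Adjusted p in limma ran from 0.0557 to 0.218 for Lrat, 0.0604 to 0.244 for Kcnj13, 0.0400 to 0.218 for Slc26a7 and Slc16a12, and 0.0521 to 0.218 for Cdh3. Leaving out 1 pool at a time gave 0.38 to 0.66 for Lrat, 0.39 to 1.03 for Kcnj13, 0.53 to 1.08 for Slc26a7, 0.40 to 0.81 for Cdh3 and 0.65 to 1.63 for Slc16a12, and Slc26a7 and Slc16a12 passed the threshold without WT pool 1 only. The directions of 4 genes reversed under scalings chosen after seeing the data: by summed ciliary epithelium counts Lrat was at -0.60, Kcnj13 at -0.33, Slc26a7 at -0.30 and Cdh3 at -0.44, and by summed melanosome counts they were at -0.54, -0.28, -0.24 and -0.38. The median of all 701 genes was then -0.81 and -0.75, so the reversals restate a shift common to the table. The number of genes past an adjusted p of 0.05 was 9, and became 43 without the trend, 160 without library scaling and 4 to 172 when 1 pool was left out (172 without WT pool 1, 4 without WT pool 2, 17 without Slc6a4-/- pool 3, 5 without Slc6a4-/- pool 2), and the cause was not tested. The share of genes higher in Slc6a4-/- was 56.6%, and 63.2% without library scaling.

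The deviations of pools with the same number correlated at 0.252, -0.160 and 0.080, and those of pools with different numbers at -0.241 to 0.138. These values do not settle whether the numbers pair the pools. With the replicate block 15 genes passed the threshold in place of 9, and none of the 5. The standard error then fell from 0.19 to 0.15 for Lrat and from 0.34 to 0.27 for Kcnj13. For Slc26a7 it fell from 0.29 to 0.16 and for Slc16a12 from 0.46 to 0.30, while for Cdh3 it rose from 0.27 to 0.29. Adjusted p in limma with the block ran from 0.0611 for Slc26a7 to 0.106 for Cdh3.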
